A study of Homo sapiens and Mus musculus with 15 samples.

Results

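The comparison described here is that of old mice given TRULI, an inhibitor of the LATS kinases, with old mice not given it (Ctrl), in bulk RNA-seq libraries labelled as retinal pigment epithelium (RPE). It covers 4 libraries, 2 per group, of the 15 samples of the series. A gene was taken as expressed where its TPM (a transcript level scaled for gene length and for the library total) was at least 1 in at least 2 of the 4 libraries, which kept 15132 of the 56832 genes in the table. The mice were of the strain C57BL/6J. Their age in months and the dose, route and duration of TRULI are not given in the sources used here, nor is a vehicle for the Ctrl mice or whether each library came from 1 animal, so the p-values measure only the spread between these libraries, which may be technical. RNA was taken by lysing the eye cup after the front of the eye and the retina had been removed, and libraries were made from poly-A RNA. The paper, which does not describe these mice, speaks of a selective lysis of RPE cells in the eye cup, and the sources used here give no further separation from the choroid and sclera. Samples of the same series used only for reference were 9 libraries of ARPE-19, a human RPE cell line, with 3 each of control-vector cells grown on plastic, control-vector cells grown on a 1.5 kPa gel and cells overexpressing YAP-HA grown on that gel, and single-cell libraries of RPE and choroid from mice of 3 and 24 months, 1 each.

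LATS1 and LATS2 are the last kinases of the Hippo pathway. They phosphorylate the co-activators YAP and TAZ and so keep them out of the nucleus. Unphosphorylated YAP and TAZ bind TEAD factors there and drive genes of the matrix, the cytoskeleton and growth. The RPE is a pigmented epithelium behind the photoreceptors, which recycles retinoids, takes up shed outer segments and rests on Bruch's membrane, and the choroid below it holds vessels, fibroblasts, melanocytes and resident macrophages.

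The libraries carried the RPE label's markers. The 8 RPE markers summed to 27034 and 27075 TPM in the Ctrl libraries and 31351 and 28275 TPM in the TRULI libraries. Rpe65, the retinoid isomerase, stood at 2277 and 2521 TPM with Ctrl and 2490 and 1798 TPM with TRULI. Markers of other cells were present as well, among them the fibroblast gene Dcn at 1470 to 1867 TPM. The Spearman correlation over genes was 0.960 within each pair and 0.942 to 0.949 between groups, and the first principal component, with 45.9% of the variance, separated the groups. All 4 libraries had the Y-linked gene Ddx3y and Xist at no more than 0.01 TPM.

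Several marker lists of tissues around the RPE differed between libraries before any gene was tested. The 5 erythroid genes, which encode globins and a heme synthesis enzyme, summed to 3071 and 2269 TPM with Ctrl and to 890 and 828 TPM with TRULI. The 9 lens genes summed to 32.5 and 153 TPM with Ctrl and to 477 and 254 TPM with TRULI, led by the crystallin Crybb2. The 12 rod genes summed to 1609 and 832 TPM with Ctrl and 533 and 860 TPM with TRULI. All 12 had a negative log2 fold change (median -0.92). At an unadjusted p under 0.05, 5 were lower (5.6% of all genes tested). Another count, of genes lower with no overlap between groups, was 8 (18.1% of all genes tested), while the sums overlapped. The rod median was -0.42 without the first TRULI library and -1.27 without the second. Skeletal muscle genes were high in the first Ctrl library alone, with a sum of 314 TPM against 50.9 TPM in the second and 42.8 and 15.0 TPM with TRULI. Genes of surface epithelium (Krt5, Krt14, Krt12 and others) summed to 0 to 1.6 TPM. The part of blood, lens, retina and muscle in the results that follow was not tested, and in bulk RNA fewer cells of a type and less RNA per cell cannot be told apart.

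With TRULI, 5 genes fell and 3 rose at an adjusted p under 0.05 (limma on log2(TPM + 1) with Benjamini-Hochberg adjustment), which is 0.033% and 0.0198% of the genes tested. The genes that fell were Apoc1, Fcna, Cfp, Pf4 and Cd4, and those that rose were Gm55594, Gm47283 and Gm42457, predicted genes with no established role. At an unadjusted p under 0.05 there were 963 genes higher (6.36%) and 847 lower (5.6%). These shares are the background for each count of list members at that p. Counting only genes whose groups did not overlap, 3812 were higher (25.2%) and 2741 lower (18.1%), and with at least a 2-fold change besides, 375 were higher (2.48%) and 457 lower (3.02%). Leaving out any one of the 4 libraries ended all 8 calls, the smallest adjusted p then being 0.3935 without the second Ctrl library, 0.3471 without the first, 0.1179 without the first TRULI library and 0.07888 without the second. With 2 against 2 libraries an exact permutation test cannot go below p = 0.333, and when changes were simulated in these data, the fit found 0% of 100 genes with a log2 fold change of 1 and 29% of 100 genes with one of 2.

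**Figure D1:**
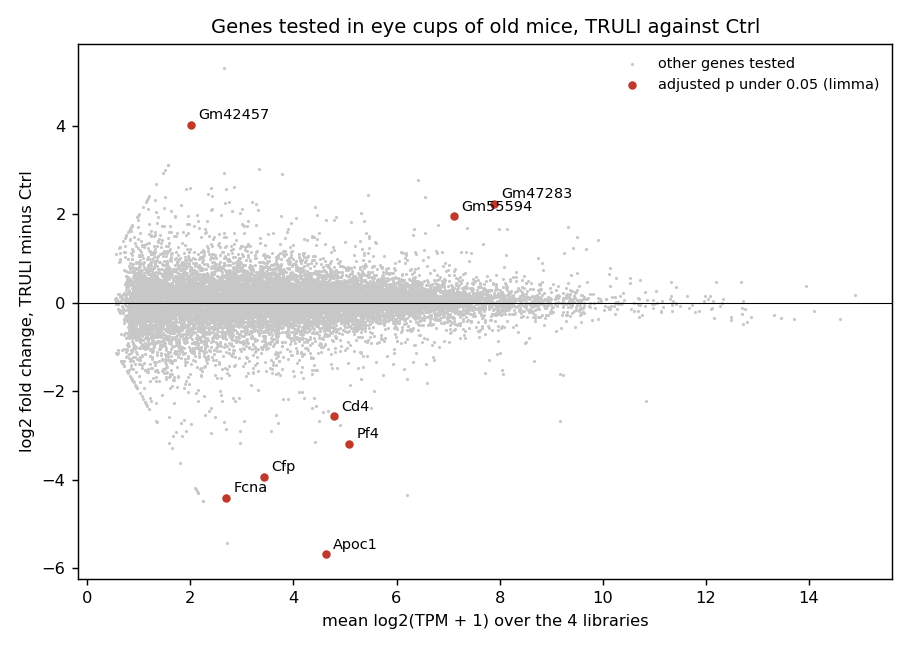
Each point is 1 of the 15132 genes tested, with its mean log2(TPM + 1) over the 4 libraries on the x axis and its log2 fold change, TRULI minus Ctrl, on the y axis. The 8 called genes are red and named, of which Apoc1 is lowest at -5.69 and Gm42457 highest at 4.03.

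The largest called decrease on the log2(TPM + 1) scale was in Apoc1, which encodes a small apolipoprotein of lipoprotein particles and of lipid-laden macrophages. Its level was 169 and 185 TPM in the Ctrl libraries and 1.56 and 3.63 TPM in the TRULI libraries, a log2 fold change of -5.69 (SE 0.31, adjusted p = 0.0334 by limma). The groups were far apart and the means differed 68.4-fold.

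The remaining called decreases were in genes known from macrophages, platelets or T cells. Fcna, a ficolin that starts the lectin pathway of complement, was at 27.1 and 30.9 TPM with Ctrl and at 0.43 and 0.39 TPM with TRULI, a 70.7-fold difference of the means. Cfp, which encodes properdin, the stabiliser of the alternative complement convertase, was at 42.2 and 40.3 TPM with Ctrl and 1.46 and 2.12 TPM with TRULI, 23.1-fold apart. Pf4, a chemokine of platelets and resident macrophages, was at 109 and 94.5 TPM against 12.6 and 8.25 TPM, 9.74-fold apart. Cd4, the co-receptor of helper T cells, which mouse macrophages can also express, was at 58.1 and 75.0 TPM against 10.2 and 10.4 TPM, 6.46-fold apart. For each of these the TRULI libraries lay close together and below both Ctrl libraries, and the log2 fold changes ran from -4.41 for Fcna to -2.57 for Cd4.

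Of the called increases, Gm47283 was at 125 and 93.9 TPM with Ctrl and 532 and 497 TPM with TRULI. Gm55594 was at 71.8 and 66.4 TPM against 299 and 247 TPM. Gm42457 was listed at 0 in both Ctrl libraries and at 14.3 and 16.4 TPM with TRULI, so it has no fold. A further 4 genes, which makes 12 in all, had an adjusted p under 0.1, and each was lower with TRULI in both libraries. These were Vsig4, a complement receptor of resident macrophages (adjusted p = 0.0538 by limma), the globin Hba-a2 (0.0538), the C-type lectin receptor Clec12a (0.0545) and Igfbp3, a binding protein of insulin-like growth factors (0.0545).

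The other largest decreases among named genes with no overlap and at least a 2-fold change did not pass the adjusted threshold. Vsig4 was at 28.5 and 16.0 TPM with Ctrl and listed at 0 in both TRULI libraries. Timd4, a receptor of resident macrophages for phosphatidylserine on apoptotic cells, was at 8.68 and 7.30 TPM and then listed at 0 in both. Cd300ld5, a myeloid receptor gene, was at 8.91 and 32.7 TPM and also listed at 0 with TRULI, and its neighbour in name Cd300ld4 went from 7.03 and 9.23 TPM to 0.24 and 0 TPM. Values of these related receptors are uncertain where reads could be assigned to either. Cxcl9, a chemokine induced by interferon gamma, was at 28.6 and 17.5 TPM against 2.10 and 1.20 TPM. Cela1, an elastase, was at 36.3 and 65.9 TPM against 1.66 and 4.86 TPM. Snurf and the pseudogene Rpl10-ps1 complete the 12, both listed at 0 with TRULI. Snurf shares its transcript with Snrpn and Rpl10-ps1 resembles other copies, one of which, Rpl10-ps5, was listed at 0 with Ctrl and at 9.43 and 4.59 TPM with TRULI, so these values are uncertain, and the part of reads divided between copies was not tested.

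**Figure D2:**
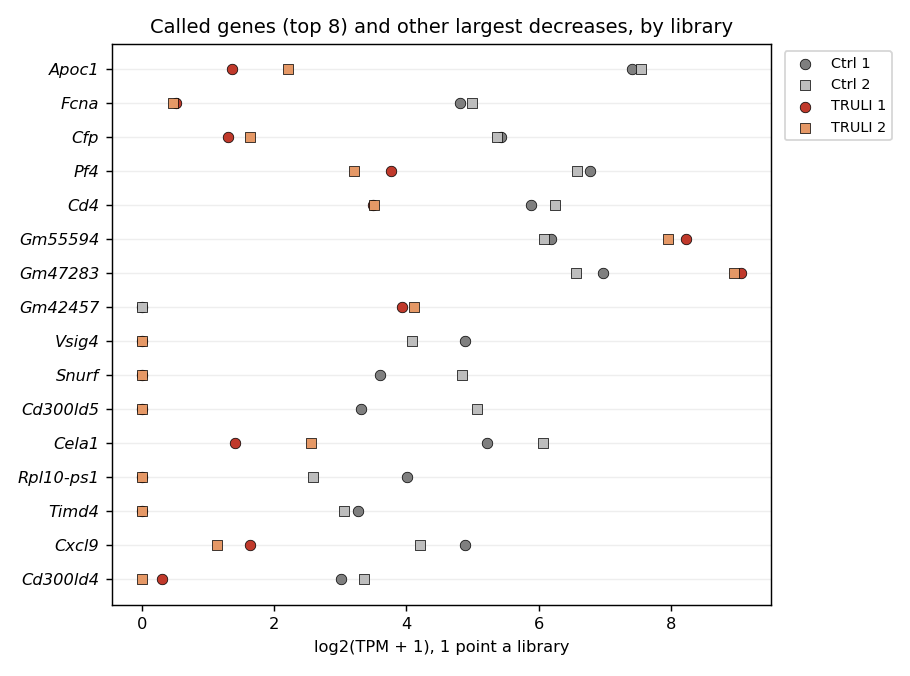
Level of each gene as log2(TPM + 1) on the x axis, with 1 point for each of the 4 libraries (grey for Ctrl, red and orange for TRULI). The 8 called genes come first, and in each row the Ctrl points lie on one side of the TRULI points, with Apoc1 at 169 and 185 TPM against 1.56 and 3.63 TPM.

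The single-cell libraries show in which cells these genes are found in mice of 24 months. Cells with a UMI of a globin gene were left out. Gating was by at least 3 detected markers of a class, and more than of any other class. Levels are CPM, the UMIs of a gene scaled to the total UMIs of the gated cells. Levels were compared only among RPE, fibroblast, endothelial, mural, macrophage and T or NK gates. In the 321 macrophage-gated cells Fcna was at 59.2 CPM (exact 95% Poisson interval 49.2 to 70.6, for counting error only), Cfp at 97.2, Pf4 at 351, Timd4 at 7.70 and Vsig4 at 6.74. In the 9454 RPE-gated cells the same genes were at 0.41, 6.59, 3.06, 0.43 and 0.04 CPM. Of the 12 largest decreases, 8 had at least 3 UMIs in the gate where they were highest, and for 6 of them this was the macrophage gate. The share of all genes highest in that gate was not determined, so this count has no background. Cd4 was highest in T or NK cells, with 14.3 CPM, followed by macrophage-gated cells with 9.15. Apoc1 did not show this pattern: it was at 4.10 CPM in RPE-gated and 4.41 in fibroblast-gated cells, and had only 3 UMIs in macrophage-gated cells (1.44 CPM, interval 0.30 to 4.22). The single-cell library thus held little Apoc1 in any of the gates compared, while the bulk Ctrl libraries had it at 169 and 185 TPM.

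**Figure D3:**
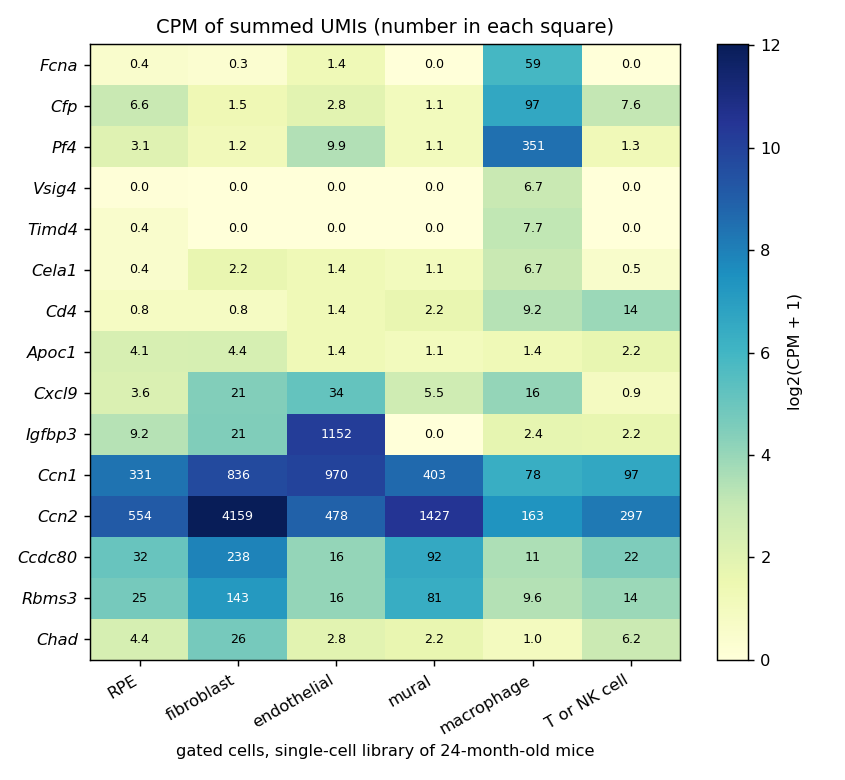
Rows are genes and columns are gated cell classes of the single-cell library from mice of 24 months. The number and colour of each square give the CPM, the colour on a log2(CPM + 1) scale. Fcna, Cfp, Pf4, Vsig4, Timd4 and Cela1 are highest in macrophage-gated cells, Igfbp3 in endothelial-gated cells and Ccn2, Ccdc80, Rbms3 and Chad in fibroblast-gated cells.

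Macrophage markers of a cell type list were also lower with TRULI as a group. The list was not ranked by size of change, but was chosen with earlier results of these data known. It was read in the same 4 libraries as the called genes and is no independent evidence. Summed over the 8 markers they were at 1868 and 1873 TPM with Ctrl and at 952 and 1173 TPM with TRULI. The median log2 fold change was -0.74, against 0.04 over all genes tested. Of the 8, 6 had an unadjusted p under 0.05, all lower (5.6% of all genes). C1qa, C1qb and C1qc, the chains of the complement starter C1q, were at 354 to 507 TPM with Ctrl and at 139 to 287 TPM with TRULI. Csf1r, the receptor that macrophages depend on, was at 118 and 144 TPM against 115 and 133 TPM, and so overlapped between groups. The macrophage mannose receptor Mrc1 overlapped too, with 24.3 and 38.5 against 17.0 and 24.9 TPM. The 17 complement genes as a whole had a median of -0.06, with 6 lower and 1 higher at an unadjusted p under 0.05. The higher one was Cfi, the protease that cleaves C3b, at 15.5 and 18.1 TPM against 25.4 and 57.6 TPM.

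T and NK cell markers were lower as well. All 8 were lower at an unadjusted p under 0.05 (5.6% of all genes), with a median of -1.52. Their sum was 79.7 and 94.99 TPM with Ctrl and 30.1 and 22.4 TPM with TRULI. Cd3g, a chain of the T cell receptor complex, was at 24.98 and 32.4 TPM against 6.94 and 4.41 TPM. Nkg7, a granule gene of cytotoxic cells, was at 6.77 and 5.29 TPM against 1.13 and 0 TPM. Of the 3 B or plasma cell genes tested 1 was higher, Ighm, at 2.95 and 3.97 TPM against 7.19 and 13.0 TPM. The macrophage and T or NK lists differed in the same direction as the 5 erythroid genes, which had a median of -1.61 and were all lower at an unadjusted p under 0.05, and the part of blood in them was not tested. Among endothelial markers 1 of 8, Pecam1, was lower at an unadjusted p under 0.05, with 48.8 and 50.9 TPM against 26.4 and 31.6 TPM.

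Chemokines, interferon-stimulated genes and genes of antigen presentation were lower with TRULI as groups, with 0 members past the adjusted threshold. Of 22 cytokine and chemokine genes, 10 were lower and 0 higher at an unadjusted p under 0.05 (5.6% and 6.36% of all genes). The median was -0.58, which was -0.35 without the first TRULI library. Besides Cxcl9, the monocyte and lymphocyte attractants Ccl7, Ccl5 and Ccl8 led the list. Ccl5 was at 21.7 and 23.6 TPM with Ctrl and 7.13 and 6.13 TPM with TRULI. The inflammatory cytokines Il1b, at 7.04 and 5.93 against 5.30 and 10.3 TPM, and Tnf, at 0.63 and 2.23 against 1.53 and 2.50 TPM, overlapped between groups.

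Of 34 interferon-stimulated genes, 16 were lower and 0 higher at an unadjusted p under 0.05 (5.6% and 6.36% of all genes). A negative log2 fold change was found in 31 (median -0.62). The largest was in Iigp1, an interferon-inducible GTPase that acts on pathogen vacuoles, at 44.0 and 22.3 TPM with Ctrl and 3.50 and 3.16 TPM with TRULI. Irf7, the regulator of type I interferon genes, was at 48.3 and 26.9 TPM against 11.6 and 12.1 TPM. Bst2, a membrane protein that tethers budding virions, was at 223 and 264 TPM against 181 and 132 TPM, a log2 fold change of -0.65 (SE 0.19, adjusted p = 0.319 by limma). Ifi27 was not lower, with 281 and 253 TPM against 369 and 262 TPM. The first Ctrl library was the higher of its pair for Iigp1, Irf7, Igtp and Gbp2, while Bst2 was higher in the second.

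Of 16 genes of antigen presentation, 9 were lower and 0 higher at an unadjusted p under 0.05 (5.6% and 6.36% of all genes). The median was -0.52, and -0.28 without the first TRULI library. The class II chaperone Cd74 was at 548 and 451 TPM with Ctrl and 255 and 322 TPM with TRULI, and the class II gene H2-Aa at 125 and 132 against 56.9 and 90.4 TPM. Tap1, the peptide transporter of class I loading, was at 54.8 and 29.1 TPM against 16.7 and 19.3 TPM. B2m, the light chain of class I molecules found on nearly all cells, was at 2000 and 1741 TPM against 1480 and 1501 TPM. Lysosomal genes had a smaller median of -0.19, with 4 of 20 lower at an unadjusted p under 0.05 (5.6% of all genes). Among these was the cathepsin gene Ctsc at 131 and 113 against 73.0 and 65.4 TPM.

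**Figure D4:**
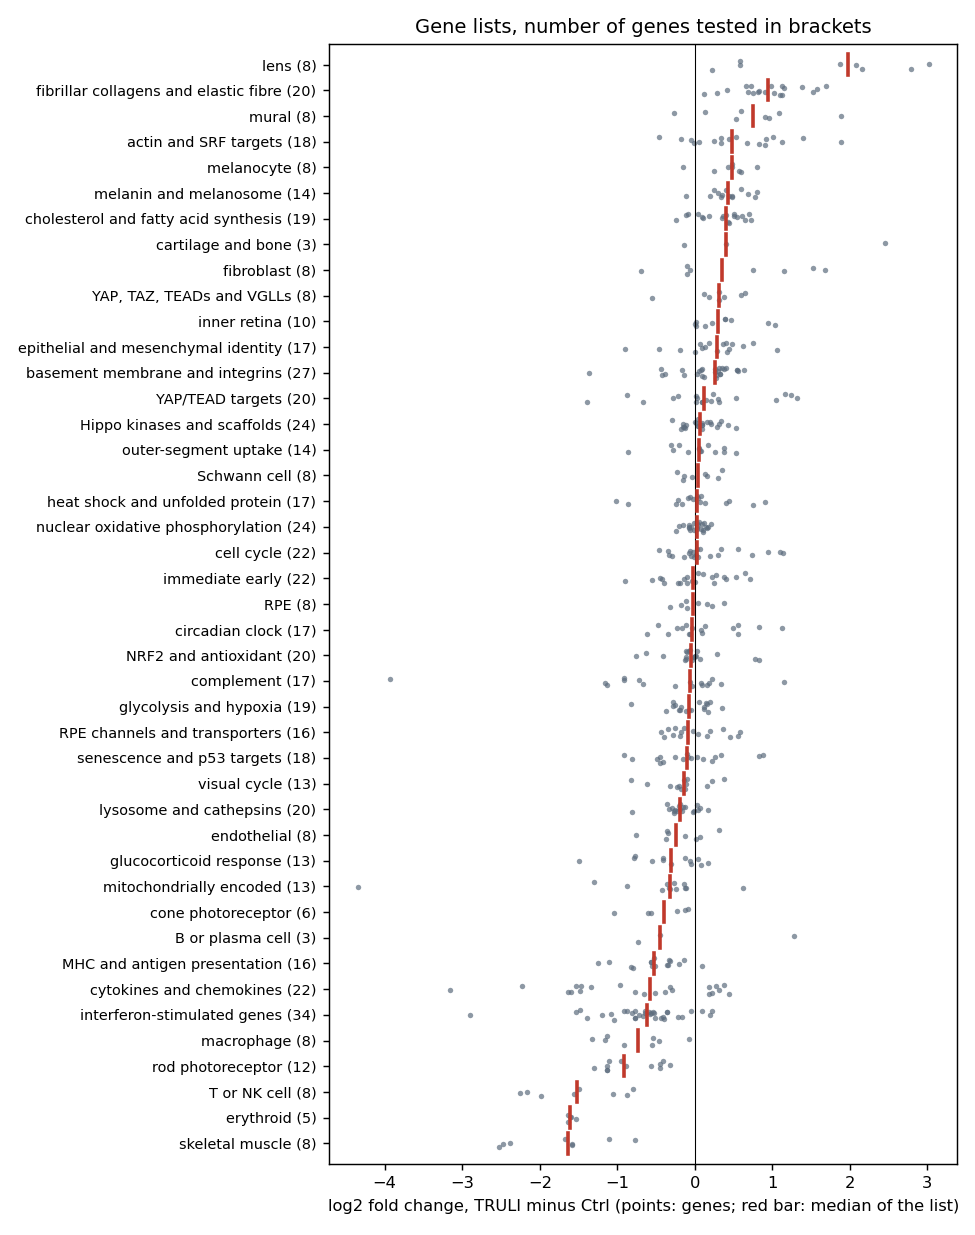
Log2 fold changes, TRULI minus Ctrl, of the genes tested in each list (points), with the median of the list as a red bar and the number of genes in brackets. Medians run from -1.63 for skeletal muscle to 1.97 for lens. T or NK cell, erythroid, macrophage and interferon-stimulated genes lie to the left, and fibrillar collagens, mural markers and actin and SRF targets to the right.

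The pathway that TRULI acts on showed little difference in the levels of its own transcripts. None of the 24 genes of Hippo kinases and scaffolds had an unadjusted p under 0.05, and the median was 0.07. Lats1 was at 10.96 and 11.07 TPM with Ctrl and 13.9 and 13.4 TPM with TRULI, and Lats2 at 48.0 and 48.3 against 46.7 and 56.0 TPM. Nf2, which encodes the upstream activator merlin, was at 91.8 and 93.6 TPM against 81.0 and 70.5 TPM. Yap1 was at 51.9 and 52.4 TPM against 70.5 and 60.0 TPM, and Wwtr1, which encodes TAZ, at 23.9 and 20.9 against 24.8 and 34.2 TPM. Both were higher in each TRULI library than in either Ctrl library, with an adjusted p of 0.476 and 0.568 (limma). Of the 8 genes of YAP, TAZ, TEADs and VGLLs 1 had an unadjusted p under 0.05, Tead2, at 7.30 and 9.70 against 14.5 and 13.1 TPM. These are RNA levels, and the phosphorylation that LATS carries out was not measured.

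YAP/TEAD target genes were split. Of 20 tested, 4 were higher and 2 lower at an unadjusted p under 0.05, against 6.36% and 5.6% of all genes, and the median was 0.12, against 0.04 over all genes. Without the first Ctrl library the median of the targets was 0.03, and without the first TRULI library it was 0.27. Ccn2, a matricellular protein and the usual reporter of YAP activity, was at 356 and 564 TPM with Ctrl and 868 and 1286 TPM with TRULI (log2 fold change 1.24, SE 0.28, adjusted p = 0.252 by limma). Ccn1, its relative, was at 15.8 and 13.3 TPM against 30.4 and 46.6 TPM (1.32, SE 0.25, adjusted p = 0.224). The secreted matrix protein gene Ccdc80 was at 96.2 and 123 TPM against 188 and 315 TPM, and the RNA-binding protein gene Rbms3 at 7.31 and 6.58 against 14.2 and 16.8 TPM. In all 4 of these the second TRULI library was the highest and no library overlapped with the other group.

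In the other direction, Igfbp3 was at 154 and 151 TPM with Ctrl and 59.0 and 56.6 TPM with TRULI, with a log2 fold change of -1.39 (SE 0.12). The ectonucleotidase gene Nt5e was at 20.5 and 15.2 TPM against 10.2 and 8.19 TPM. Targets that sit in the pathway's own feedback did not differ beyond the spread of the libraries: Amotl2, an inhibitor of YAP, was at 134 and 131 TPM against 137 and 131 TPM, with a log2 fold change of 0.02 (SE 0.11), and Lats2 is given above. Crim1, F3 and Myof overlapped between groups, and Ankrd1 was under 1 TPM in every library and was not tested. In the single-cell library of 24 months, Ccn2 was at 4159 CPM in fibroblast-gated and 554 in RPE-gated cells, Ccn1 at 970 in endothelial-gated and 331 in RPE-gated cells, and Igfbp3 at 1152 in endothelial-gated and 9.18 in RPE-gated cells, so the bulk values of these genes draw on more than the RPE.

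**Figure D5:**
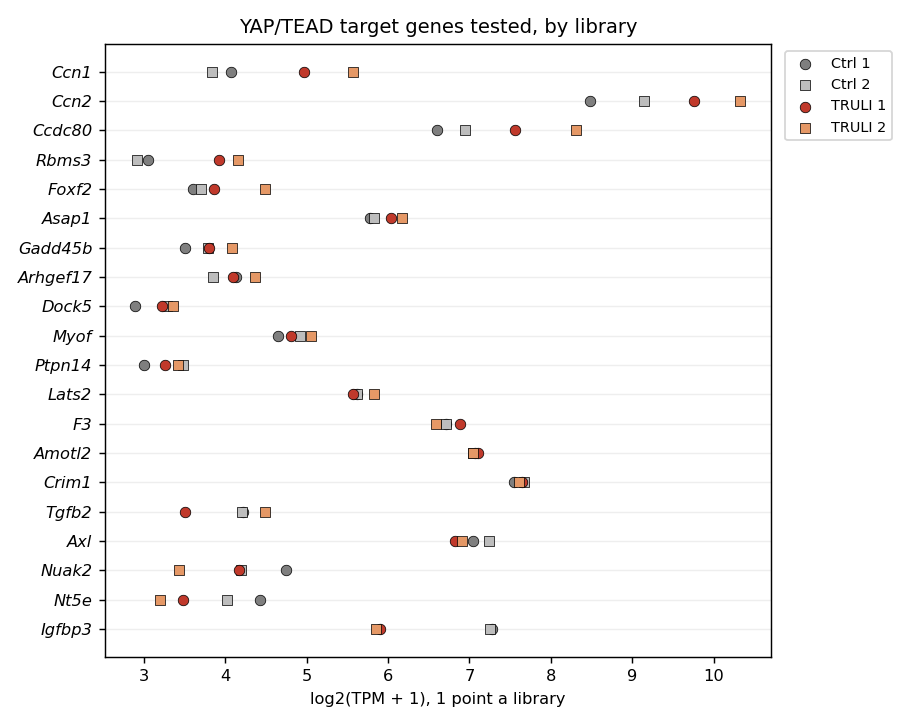
Level of the 20 YAP/TEAD target genes tested, as log2(TPM + 1) on the x axis, with 1 point for each of the 4 libraries (grey for Ctrl, red and orange for TRULI), ordered by log2 fold change from Ccn1 (1.32) to Igfbp3 (-1.39). The groups are apart in the rows from Ccn1 to Gadd45b and from Axl to Igfbp3, and mixed in the rows between.

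Matrix and contractile genes were higher with TRULI as groups. All 20 genes of fibrillar collagens and elastic fibres had a positive log2 fold change, with a median of 0.94. At an unadjusted p under 0.05, 15 were higher and 0 lower (6.36% and 5.6% of all genes). Col1a1, a chain of type I collagen, was at 43.1 and 49.8 TPM with Ctrl and 97.4 and 188 TPM with TRULI. Fn1, which encodes fibronectin, was at 72.7 and 112 TPM against 178 and 486 TPM, and Lox, the enzyme that crosslinks collagen and elastin, at 12.5 and 11.6 against 29.4 and 48.4 TPM. The smallest adjusted p in the list was 0.187 (limma), for the type VI collagen gene Col6a2. The second TRULI library was the highest for each of these, and the summed list was at 1443 and 1528 TPM with Ctrl and 2134 and 3651 TPM with TRULI. The median was 0.55 without the second TRULI library and 1.31 without the first. The basement membrane and integrin genes had a median of 0.26, which was 0.03 without the second TRULI library. Of 27, 2 were higher and 1 lower at an unadjusted p under 0.05, a share near that of all genes. The lower one was Itgb4, the integrin chain of hemidesmosomes, at 9.65 and 15.9 TPM against 3.63 and 4.88 TPM.

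Of 18 actin and serum response factor (SRF) target genes, 10 were higher and 0 lower at an unadjusted p under 0.05 (6.36% and 5.6% of all genes). The median was 0.48. Tagln, an actin-binding protein of smooth muscle, was at 8.45 and 16.7 TPM with Ctrl and 32.4 and 67.0 TPM with TRULI, and the tropomyosin gene Tpm1 at 277 and 323 against 492 and 740 TPM. Srf itself overlapped between groups, at 15.0 and 17.2 against 15.5 and 16.4 TPM. Mural cell markers, which share Tagln, Acta2 and Myh11 with this list, had 5 of 8 higher at that p and a median of 0.75. Besides Tagln they were led by Rgs5 at 170 and 215 against 303 and 542 TPM. Fibroblast markers were divided: the collagens and Fmod were higher, 4 of 8, while Dcn, at 1579 and 1867 against 1470 and 1848 TPM, and Lum, Pdgfra and Dpt had negative log2 fold changes. The part of scleral, choroidal and smooth muscle tissue in these lists was not tested. Chad, a cartilage leucine-rich matrix protein, was among the largest increases, with 10.3 and 29.7 TPM against 83.0 and 122 TPM, and was highest in fibroblast-gated cells in the single-cell library.

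Visual cycle genes had a median of -0.14, with 1 of 13 higher and 1 lower at an unadjusted p under 0.05. The higher one was Ttr, the carrier of thyroxine and retinol-binding protein, at 14205 and 13516 TPM with Ctrl and 17594 and 18382 TPM with TRULI, and the lower one Rdh10, a retinol dehydrogenase, at 314 and 303 against 244 and 166 TPM. Of 16 channels and transporters, 2 were higher and 1 lower at that p (6.36% and 5.6% of all genes), and of 14 genes of outer-segment uptake 2 were higher and 2 lower. Among the latter, Cd36, a scavenger receptor of RPE and macrophages, was at 66.3 and 77.9 TPM against 39.3 and 38.8 TPM. Of 14 melanin genes, 8 were higher and 0 lower at an unadjusted p under 0.05 (6.36% and 5.6% of all genes), with a median of 0.42, and 13 were higher with no overlap between groups (25.2% of all genes). Dct, which encodes dopachrome tautomerase, was at 2104 and 2219 TPM against 3190 and 2821 TPM, and the melanosome matrix gene Pmel at 237 and 260 against 398 and 351 TPM. These genes are shared by RPE and melanocytes. The melanocyte markers outside this list were Kit, Ednrb and Sox10. Kit was at 7.12 and 9.48 against 14.3 and 11.2 TPM, and Ednrb at 80.9 and 72.1 against 107 and 100 TPM. Sox10 overlapped, with 90.8 and 85.5 against 86.8 and 72.3 TPM.

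Epithelial and mesenchymal genes were mixed, with a median of 0.29. At an unadjusted p under 0.05, 4 of 17 were higher and 2 lower (6.36% and 5.6% of all genes). Snai2, a repressor of epithelial genes, was at 4.42 and 4.87 TPM with Ctrl and 8.76 and 13.2 TPM with TRULI. Cdh3, the P-cadherin of RPE junctions, was at 67.9 TPM in both Ctrl libraries and at 35.4 and 36.7 TPM with TRULI (log2 fold change -0.90, SE 0.13, adjusted p = 0.166 by limma). The RPE and eye field gene Otx2 overlapped between groups, with 254 and 248 against 296 and 233 TPM.

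Genes of proliferation and senescence gave no group-wide difference. Of 22 cell-cycle genes, 3 were higher and 0 lower at an unadjusted p under 0.05 (6.36% and 5.6% of all genes), with a median of 0.02. Among the higher ones was Cenpf at 0.63 and 0.71 against 2.55 and 2.59 TPM. Of 18 genes of senescence and cell-cycle arrest, 1 was higher and 2 lower at that p, with a median of -0.10. Cdkn1a, which encodes p21, was at 18.4 and 11.5 TPM with Ctrl and 11.8 and 9.17 TPM with TRULI, and so overlapped between groups. Gdf15, a stress-induced cytokine, was at 5.51 and 4.25 against 2.46 and 1.79 TPM.

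Of 17 clock genes, 4 were higher and 6 lower with no overlap between groups (25.2% and 18.1% of all genes). None passed the adjusted threshold. Dbp, an output gene of the circadian clock, was at 82.7 and 65.7 TPM with Ctrl and 181 and 145 TPM with TRULI, and Nr1d1, the repressor of the positive limb, at 22.4 and 21.9 against 37.6 and 42.8 TPM. Arntl, a gene of that positive limb, was at 10.5 and 11.3 TPM against 7.83 and 5.77 TPM. Per1 and Per2 overlapped between groups, and the median over 17 clock genes was -0.04. At an unadjusted p under 0.05, 3 were higher and 1 lower (6.36% and 5.6% of all genes). The time of day at which the mice were killed is not given in the sources used here, and its part was not tested.

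Cholesterol and fatty acid synthesis genes had a median of 0.40. At an unadjusted p under 0.05, 5 of 19 were higher and 0 lower, for example Idi1 at 12.4 and 16.2 against 25.3 and 20.4 TPM. Over all genes the shares at that p were 6.36% and 5.6%, the background for the counts of the next lists too. Nuclear genes of oxidative phosphorylation had a median of 0.02, with 0 of 24 past an unadjusted p of 0.05 in either direction. The 13 mitochondrially encoded genes had 5 lower and 0 higher at that p and a median of -0.32. They summed to 72248 and 72946 TPM with Ctrl and to 61859 and 57674 TPM with TRULI. Glucocorticoid-responsive genes had 4 of 13 lower and 0 higher at that p (median -0.31). NRF2 and antioxidant genes had 2 of 20 higher and 2 lower at that p (median -0.05). Among them, Gpx3, a secreted glutathione peroxidase, was at 632 and 722 against 419 and 451 TPM, and Prdx6 at 235 and 271 against 151 and 145 TPM. Glycolysis and hypoxia genes (median -0.07), immediate early genes (-0.02) and heat shock genes (0.03) had at most 2 members past an unadjusted p of 0.05 in either direction.

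The ARPE-19 libraries gave a list of genes that respond to YAP in RPE-derived cells. There, YAP-HA on the gel raised 350 genes (2.4%) and lowered 603 (4.13%) of 14606 at an adjusted p under 0.05 and at least a 2-fold change, against control cells on the gel (limma). Matched by symbol without regard to case, 207 of the raised genes were tested in the mouse. Their median with TRULI was 0.07, with 20 higher and 10 lower at an unadjusted p under 0.05, and the median of all 10122 genes tested in both was 0.06, with 616 higher and 346 lower. The lowered genes, of which 363 were tested, had a median of -0.08. At that p, 31 of the 363 were higher and 56 lower, against 616 and 346 of the 10122. Among the 12 most lowered with YAP-HA, the mouse values of Bst2, Cd74 and Ifi27 are given above, and Ifi27 was not lower with TRULI. Mx1, at 3.77 and 12.7 against 1.07 and 12.9 TPM, overlapped between groups. Individual targets differed between the systems. Human AMOTL2 had a log2 fold change of 1.21 and CRIM1 of 1.56 with YAP-HA, while mouse Amotl2 and Crim1 were at 0.02 and 0.01 with TRULI. Human CCN2 and CCN1 had small changes of 0.25 and 0.21, and IGFBP3 one of 0.62, while mouse Igfbp3 was at -1.39.

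Genes that differ with age were taken from the RPE-gated cells, 9454 at 24 months and 4615 at 3 months, with 1 library per age and hence no test. A gene counted as different where its CPM differed at least 2-fold and was at least 20 in either library. Of the 33 genes higher at 24 months and tested in the mouse table, 20 were lower and 4 higher with TRULI at an unadjusted p under 0.05, with a median of -0.77. Of the 39 genes lower at 24 months, 15 were higher and 1 lower, with a median of 0.29. Over all 6083 genes measured in the gate there were 431 higher and 260 lower, with a median of 0.06. The genes higher at 24 months hold Ccl5, Nkg7 and C1qb, described above, and S100a8, a calprotectin gene of myeloid cells, which was at 20.9 and 19.7 TPM against 0.72 and 3.75 TPM. Mmp3, a matrix metalloproteinase, had the largest ratio with age and was at 456 and 436 TPM with Ctrl and 137 and 177 TPM with TRULI. Tagln, Fn1 and Timp1 were higher both at 24 months and with TRULI, and Lyz2, the lysozyme gene, was at 5661 and 5582 against 8380 and 7206 TPM. The genes lower at 24 months hold Pmel, Tyrp1, Dct and Mlph, which RPE and melanocytes share, the melanocyte marker Ednrb, and the collagen genes Col1a1 and Col3a1.

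The numbers of gated cells around the RPE also differed between these libraries. With 1 library per age, age cannot be told apart from other differences between the libraries. T or NK-gated cells numbered 622 at 24 months and 52 at 3 months, macrophage-gated cells 321 and 230, melanocyte-gated cells 25 and 1116 and fibroblast-gated cells 2139 and 5573, and the libraries shared 300 cell barcodes. Free RNA of those cells in RPE droplets cannot be told apart from expression by RPE cells with this gate. A gate of RPE cells with no UMI of a macrophage marker was chosen after seeing the data. It kept 4393 of 9454 RPE-gated cells at 24 months and 2499 of 4615 at 3 months. Their median UMIs were 2055 and 1543, against 3056 and 2686 in the full RPE gate. RNA of cells other than macrophages was not screened out. In this gate, 63 genes higher at 24 months had a median of -0.49 with TRULI, with 31 lower and 4 higher at an unadjusted p under 0.05. The 143 genes lower at 24 months had a median of 0.44, with 52 higher and 4 lower. Over all 6718 genes measured in that gate, 533 were higher and 282 lower, with a median of 0.06.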

How the data were processed

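Bulk reads were turned into TPM values by the authors, who deposited them, using STAR (2.7.3a or 2.7.10b in the submitters' notes) and RSEM, on GRCm39 and GRCh38 by the same notes, which assign no roles. TPM keeps no depth, so the depth of these libraries is unknown. Unnormalized UMI counts per cell were deposited by the authors from Cell Ranger 6.0.1 on mm10. All bulk columns were mapped to samples (0 left over).

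Mouse values were fitted as log2(TPM + 1) with limma 3.58.1 in R 4.3.3 (trend on, robust off, no covariates), two-sided, with Benjamini-Hochberg adjustment over 15132 genes. Fold changes on this scale understate those of low genes. The 9 ARPE-19 libraries shared 1 fit over 14606 genes, those reaching a TPM of 1 in 3 or more libraries. Cells were kept with at least 200 genes and at most 10% mitochondrial UMIs, doublets were not removed, and cells were gated by at least 3 markers (Python 3.11.15, numpy 2.4.6, pandas 2.3.3, scipy 1.17.1). The fit was tested on simulated data with 200 changed genes.

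Named genes are all calls, the 12 largest changes each way among symbols other than predicted genes, with no overlap, at least 2-fold and an unadjusted p under 0.05, all Hippo and YAP members and the 4 largest changes of each other list. Others, such as Csf1r, Mrc1, Il1b, Tnf, Bst2, Ifi27, Cdkn1a, Otx2 and Per1, were named after their values were seen. The comparison and the lists were chosen with earlier results of these data known. The paper given with the series does not describe the TRULI mice.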

Additional observations from a re-analysis of the deposited data

How the results depend on the processing

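The number of genes called (8, with limma) was 0 with a pseudocount of 0.1, without a filter on low values, with the trend off and with the replicate numbers as a block (replicate block), and 0 to 0 when each of the 4 libraries was left out in turn, with 1009 to 1639 genes at an unadjusted p under 0.05. In the settings that keep all libraries, 1351 to 1988 genes were at an unadjusted p under 0.05, and in the other settings 8 to 10 genes were called, with 7 or 8 of the original 8 among them. All 8 kept their sign in every setting run. When a library was left out, the lone library of its group was assumed to vary like the others. The numbers of the labels do not pair the libraries as far as the data show (correlation of the deviations 0.0558 over 2 pairs). Genes with no overlap and at least a 2-fold change (832) numbered 1282 with a pseudocount of 0.1, 402 with a mean TPM of at least 5, and 1137 to 1290 with a library left out. Of 43 list medians, 11 changed sign in some setting, among them RPE, inner retina, visual cycle, cell cycle and senescence genes, and 32 did not. The median of the genes lowered by YAP-HA changed from -0.079 to 0.018 when these were taken at an adjusted p alone. The median of the genes higher at 24 months was -0.552 with a gate of at least 4 markers and -0.494 without macrophage marker UMIs, where that of the genes lower at 24 months was 0.441. The causes were not tested.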

Other observations

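The 12 largest increases among named genes with no overlap and at least a 2-fold change, none past the adjusted threshold (limma), held 3 crystallin genes of the lens. Crybb2 was at 10.6 and 90.5 TPM with Ctrl and 331 and 150 TPM with TRULI, Cryba1 at 0 and 11.5 against 33.9 and 22.5 TPM, and Crybb3 at 0 and 7.32 against 21.1 and 13.4 TPM. Grifin, which encodes a galectin-related protein of the lens, was listed at 0 in both Ctrl libraries and at 3.80 and 4.87 TPM with TRULI. In each of these the first Ctrl library was the lowest or equal lowest, as it was for the sum of the lens markers. Apart from lens genes, Fgf18, a fibroblast growth factor, was at 1.50 and 0.06 TPM with Ctrl and 6.16 and 12.4 TPM with TRULI, and the annexin gene Anxa8 at 1.89 and 0.86 against 7.34 and 17.6 TPM. Chad is given above. Pet117, an assembly factor of cytochrome oxidase, was at 3.58 and 0 TPM against 15.2 and 9.38 TPM. The histone gene H2ac10, the immunoglobulin segment Igkv12-46 and the pseudogenes Rpl10-ps5 and Mif-ps4 were listed at 0 in both Ctrl libraries, and histone genes and pseudogenes share sequence with their copies, so their values are uncertain.

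Among the remaining marker lists, 5 of 8 melanocyte genes were higher and 0 lower at an unadjusted p under 0.05 (median 0.48), and their sum was 3452 and 3689 TPM with Ctrl and 5105 and 4697 TPM with TRULI. Cone genes had a median of -0.40 with 0 of 6 past that p in either direction. Inner retina genes had a median of 0.30 with 1 of 10 higher, Trpm1, which melanocytes also express, at 78.4 and 57.1 against 127 and 151 TPM. Schwann cell genes had a median of 0.05 with 0 of 8 in either direction. Adipocyte genes were represented by Plin4 alone, at 3.25 and 3.09 against 6.70 and 6.27 TPM.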
